A study of Homo sapiens with 9 samples.

Results

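The genes described here rose stepwise with the dose of a miR-1229-3p mimic in SH-Sy5y cells. They were chosen by their own values in the 9 libraries. CPM is the estimated count of a gene per 1e6 counts of its library. A gene was kept where its mean over the 9 libraries was at least 5 CPM, every library at 10 nM lay above every control library, every library at 20 nM lay above every library at 10 nM, and log2 of the mean at 20 nM over the mean in the control was at least 0.3. This selected 180 genes of the 11676 that reached 5 CPM, from 14943 in the table, after CHPF, THSD4, ECE1, PTPRU and UHMK1, which also met the criteria, were left out by name. Since these values chose the members, their rise is given as a description and no test is attached to it. With these 5 genes counted out, the criteria held for 1.54% of the genes that reached 5 CPM. The same criteria turned downwards, with no gene left out by name, held for 200 genes.

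All libraries come from 1 line, SH-Sy5y, which was derived from a human neuroblastoma. Transfection lasted 48 h, with 3 replicates in each of 3 groups. Ctrl. received 40 pmol of a negative control oligonucleotide, 10 nM received 20 pmol of the miR-1229-3p mimic with 20 pmol of the negative control, and 20 nM received 40 pmol of the mimic alone, so that each group carried the same total amount of small RNA. Polyadenylated RNA was sequenced, and the labels do not say whether replicates were separate cultures, so that p-values measure only the spread between these samples. In bulk RNA, fewer cells of a type and less RNA per cell cannot be told apart.

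A microRNA is a short RNA that is loaded into an Argonaute protein and pairs through its seed, bases 2 to 8 from its 5′ end, with matches in the 3′ untranslated region (UTR) of messenger RNAs. Such pairing lowers the messenger RNA or its translation. A rise is thus the opposite of what seed pairing is known to do. The mature sequence of the transfected microRNA is shown so that its seed can be compared with the UTRs of the rising genes. It is encoded on the reverse strand at chr5:179798278-179798300 (RefSeq, GRCh38.p14), and its seed is in capitals.
hsa-miR-1229-3p: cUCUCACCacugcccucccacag

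Most rising genes held no match to this seed of 7 or more bases in the 3′ UTR. The search covered the longest annotated 3′ UTR of a gene (GENCODE 44, GRCh38.p14), and a gene was classed by the strongest match present. In falling order of strength these were GGTGAGAA (8-mer), GGTGAGA (7-mer of seed bases 2 to 8), GTGAGAA (7-mer of bases 2 to 7 followed by A) and GTGAGA (6-mer). Of the 179 members with a 3′ UTR of at least 50 bases, 36 (20.1%) held an 8-mer or 7-mer, against 2944 of 11345 genes that reached 5 CPM (25.9%) and 99 of 188 falling genes (52.7%). The 8-mer was found in 5 members (2.79%), in 5.51% of genes that reached 5 CPM and in 16.5% of the falling genes. No match of any kind was present in 105 members (58.7%), against 56.7% of genes that reached 5 CPM and 31.4% of the falling genes. The median UTR length was 2047 bases in members, 1983 bases in genes that reached 5 CPM and 2741 bases in falling genes, and the median GC content was 46.8%, 43.9% and 40.7%, so that length and base composition differed along with the share of matches. These shares are descriptions, and their differences were not tested. A part of the matches, from members named in the text, is shown with the match in capitals, 5′ to 3′ on the transcript strand.
ATP1B1 8-mer, chr1:169133462-169133491, forward strand: atggccgttttGGTGAGAAatgccagaaac
ATP1B1 7-mer, chr1:169133936-169133965, forward strand: gtcacgaccttGGTGAGActtaacctgttt
STARD13 8-mer, chr13:33104872-33104901, reverse strand: gcaaatgggggGGTGAGAAgtcattaccaa
RAB40B 8-mer, chr17:82655645-82655674, reverse strand: gccacaggtggGGTGAGAAcgacagggccg
PIEZO1 7-mer, chr16:88715600-88715629, reverse strand: caagtggactcGTGAGAAggagtaggagct
SPOCK2 7-mer, chr10:72061309-72061338, reverse strand: aatgtggaaaaGTGAGAAgtcagagggaac
CABLES1 7-mer, chr18:23259664-23259693, forward strand: aagtggaggagGGTGAGAgatgcaggtcac
RGS5 7-mer, chr1:163146272-163146301, reverse strand: gaggccttctaGGTGAGAcacttttaaggt
ZNF469 7-mer, chr16:88440452-88440481, forward strand: gtgggtcaaagGGTGAGAgggcttccttct

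The 5 members with an 8-mer, the strongest kind of seed match, were ATP1B1, STARD13, RAB40B, E2F5 and EMC10. They are named for this match and not for the size of the rise. ATP1B1, STARD13 and EMC10 each hold a 7-mer as well, and 6 members hold more than 1 match of at least 7 bases. The rise on the log2 scale ran from 0.31 to 0.98 with a median of 0.50 in the 36 members with an 8-mer or 7-mer, and from 0.30 to 1.27 with a median of 0.43 in the 105 members with no match. The rise of 0.98 was that of EMC10. Which UTR end these cells use was not measured, so that a match may lie beyond the end of the expressed transcript.

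Library totals in estimated counts, given in units of 1e6, ran from 17.4 to 28.2. Noradrenergic neuroblastoma markers were present, with HAND2 at 1178 CPM and DBH at 1523 CPM on average in Ctrl., but TH averaged 0.60 CPM. Of mesenchymal neuroblastoma markers, VIM averaged 1027 CPM, TWIST1 417 CPM and FN1 117 CPM in Ctrl. The others were lower there, with YAP1 at 10.7, SNAI2 at 6.53, CD44 at 1.37, FOSL1 at 1.19 and WWTR1 at 0.708 CPM. EPCAM, a marker of epithelial cells, averaged 0.93 CPM and CD68, a marker of macrophages, 3.48 CPM in Ctrl. The library of 20 nM replicate 3 stood apart: the median gene deviated from its group mean by 0.149 on the log2 scale there, against 0.0455 to 0.0986 in the other 8 libraries. Mitochondrial DNA genes took 2.92% to 4.35% of the counts with groups that overlapped, but within each replicate number the Ctrl. library was the highest, at 4.35% against 3.98% and 4.10%, 3.601% against 3.21% and 2.92%, and 3.57% against 3.07% and 3.35% at 10 nM and 20 nM. The part of this in the results was not tested.

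The 180 members together took 1.76%, 1.82% and 1.85% of all counts in the Ctrl. libraries, 1.99%, 2.05% and 2.06% in those at 10 nM, and 2.45%, 2.46% and 2.54% in those at 20 nM. Replicates of a group lay within 0.1 percentage points of each other, and the second step was the larger one. On the log2 scale the mean at 20 nM exceeded that of Ctrl. by 0.30 to 1.27, with a median of 0.44, which is a median fold of 1.35. In 65 members the rise was at least 0.5, in 11 at least 0.75, in 5 at least 0.9 and in 1 at least 1. The median of all genes that reached 5 CPM was -0.02. Mean CPM over the 9 libraries ran from 5.99 to 3995 with a median of 56.0, against 42.1 for all genes that reached 5 CPM. The smallest estimated count behind any member's value was 86, and the median over members and libraries was 1200, which sets the counting error of single values. All 180 members are annotated as protein-coding, as are 97.7% of the genes that reached 5 CPM.

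**Figure D1:**
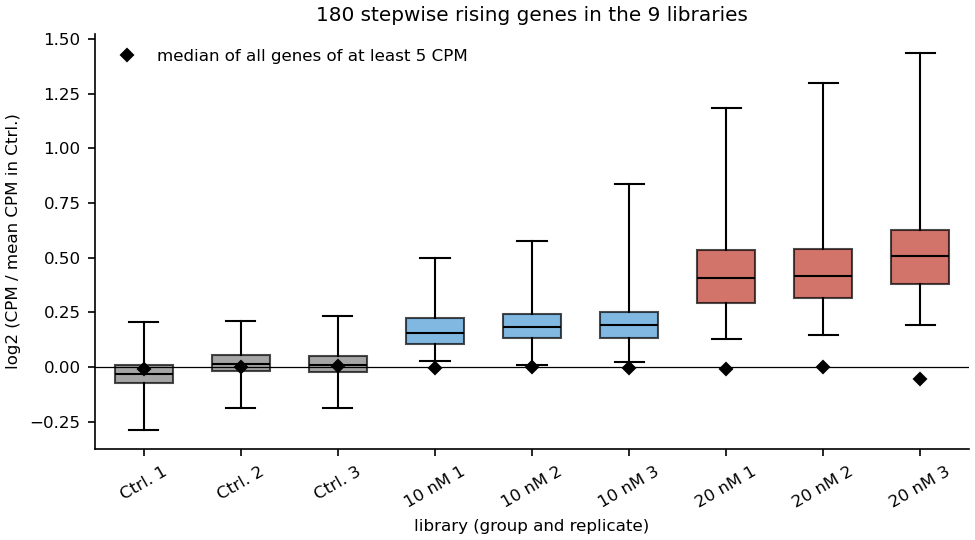
Level of the 180 members in each of the 9 libraries as log2 of CPM over the gene's mean CPM in Ctrl., with boxes from the first to the third quartile, a line at the median and whiskers to the lowest and highest member. Diamonds mark the median of all genes of at least 5 CPM, which stayed between -0.05 and 0.01, while the median of the members was 0.15 to 0.19 at 10 nM and 0.41 to 0.51 at 20 nM.

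The largest rise was that of BRINP2 (chr1:177170958-177282422, forward strand), a neural gene of a family inducible by bone morphogenetic protein and retinoic acid. It was at 4.79, 6.30 and 6.46 CPM in Ctrl., 7.26, 8.73 and 10.4 CPM at 10 nM and 13.3, 14.4 and 14.8 CPM at 20 nM. The mean rose 2.42-fold, 1.27 on the log2 scale, and both steps were of like size (0.59 and 0.68). SNRPC (chr6:34757505-34773857), a protein of the U1 small nuclear ribonucleoprotein that recognises splice donor sites, was at 38.7, 45.4 and 45.8 CPM in Ctrl., 47.4, 51.1 and 55.8 CPM at 10 nM and 91.5, 91.6 and 75.5 CPM at 20 nM. Most of its rise of 0.99 fell in the second step (0.74), and 20 nM replicate 3 lay below the other 20 nM libraries. EMC10 (chr19:50476400-50490871), a subunit of the complex that inserts membrane proteins into the endoplasmic reticulum (ER), was at 125, 144 and 147 CPM in Ctrl., 152, 162 and 176 CPM at 10 nM and 259, 270.2 and 291 CPM at 20 nM. It rose by 0.98, with 0.74 of this in the second step and all 3 libraries at 20 nM close together. ITGA6 (chr2:172427354-172506459), the laminin-binding integrin α6, was at 5.82, 5.18 and 5.67 CPM in Ctrl., 6.73, 7.24 and 7.46 CPM at 10 nM and 9.21, 10.7 and 11.2 CPM at 20 nM. Its rise of 0.90 was spread over both steps (0.36 and 0.54), with a gap between each pair of neighbouring groups. BDKRB2 (chr14:96204679-96244166), the B2 receptor of bradykinin, was at 4.96, 5.28 and 5.10 CPM in Ctrl., 7.23, 5.88 and 7.36 CPM at 10 nM and 9.21, 10.1 and 8.72 CPM at 20 nM and rose by 0.87, in nearly equal steps.

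RTCA (chr1:100266216-100292769), an enzyme that forms cyclic phosphates at RNA ends, was at 22.2, 22.6 and 23.1 CPM in Ctrl., 26.6, 27.8 and 24.7 CPM at 10 nM and 38.9, 38.3 and 41.9 CPM at 20 nM. Its replicates were close in each group, and 0.59 of its rise of 0.81 came with the second step. ATP1B1 (chr1:169105697-169310992), the β subunit of the sodium pump, was at 221, 227 and 289 CPM in Ctrl., 307, 300.1 and 363 CPM at 10 nM and 403, 397 and 446 CPM at 20 nM and rose by 0.76. Replicate 3 was its highest library in every group, so that Ctrl. replicate 3 came near the 10 nM libraries. PIEZO1 (chr16:88715338-88785220), a mechanically gated cation channel, was at 34.6, 37.9 and 37.6 CPM in Ctrl., 45.7, 49.3 and 49.2 CPM at 10 nM and 52.9973, 63.0 and 70.0 CPM at 20 nM, a rise of 0.76. PPARGC1B (chr5:149730298-149855022), a coactivator of genes for mitochondrial metabolism, was at 5.60, 4.68 and 4.27 CPM in Ctrl., 5.88, 6.90 and 5.74 CPM at 10 nM and 8.49, 8.40 and 7.52 CPM at 20 nM and rose by 0.75. It was among the least abundant members, and its highest Ctrl. library lay just under its lowest 10 nM library.

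NME1-NME2, UBE2V1 and MAGEA12 also stood among the 12 largest rises, but their counts can exchange reads with other genes and are uncertain. NME1-NME2 (chr17:51153590-51171744) is a readthrough transcript over the neighbouring genes of 2 nucleoside diphosphate kinases, and was at 17.6, 17.5 and 19.7 CPM in Ctrl., 24.9, 24.9 and 20.5 CPM at 10 nM and 28.5, 28.1 and 49.5 CPM at 20 nM. Its rise of 0.95 was largest in 20 nM replicate 3, in which NME1 and NME2 themselves were also highest, at 339 and 472 CPM against 226 to 243 and 288 to 329 CPM in the other 20 nM libraries. UBE2V1 (chr20:50081124-50115959), a partner of ubiquitin-conjugating enzymes without catalytic activity of its own, was at 63.5, 71.8 and 68.2 CPM in Ctrl., 75.4, 78.3 and 76.3 CPM at 10 nM and 142, 138 and 90.5 CPM at 20 nM, a rise of 0.86. In 20 nM replicate 3, where UBE2V1 was lowest of its group, the readthrough gene PEDS1-UBE2V1 that shares its exons was at 37.2 CPM, against 7.86 and 5.04 CPM in the other 20 nM libraries. MAGEA12 (chrX:152733757-152737669), a cancer-testis antigen with near-identical copies on the X chromosome, was at 25.4, 29.5 and 29.6 CPM in Ctrl., 30.3, 32.1 and 35.2 CPM at 10 nM and 44.01, 46.7 and 57.2 CPM at 20 nM and rose by 0.81. The related MAGEA2B went from 46.4 ± 7.42 CPM in Ctrl. over 55.9 ± 5.12 CPM at 10 nM to 70.5 ± 10.3 CPM at 20 nM (SD, n = 3), and MAGEA3 from 141 ± 6.57 CPM in Ctrl. over 152 ± 6.03 CPM at 10 nM to 161 ± 30.5 CPM at 20 nM.

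**Figure D2:**
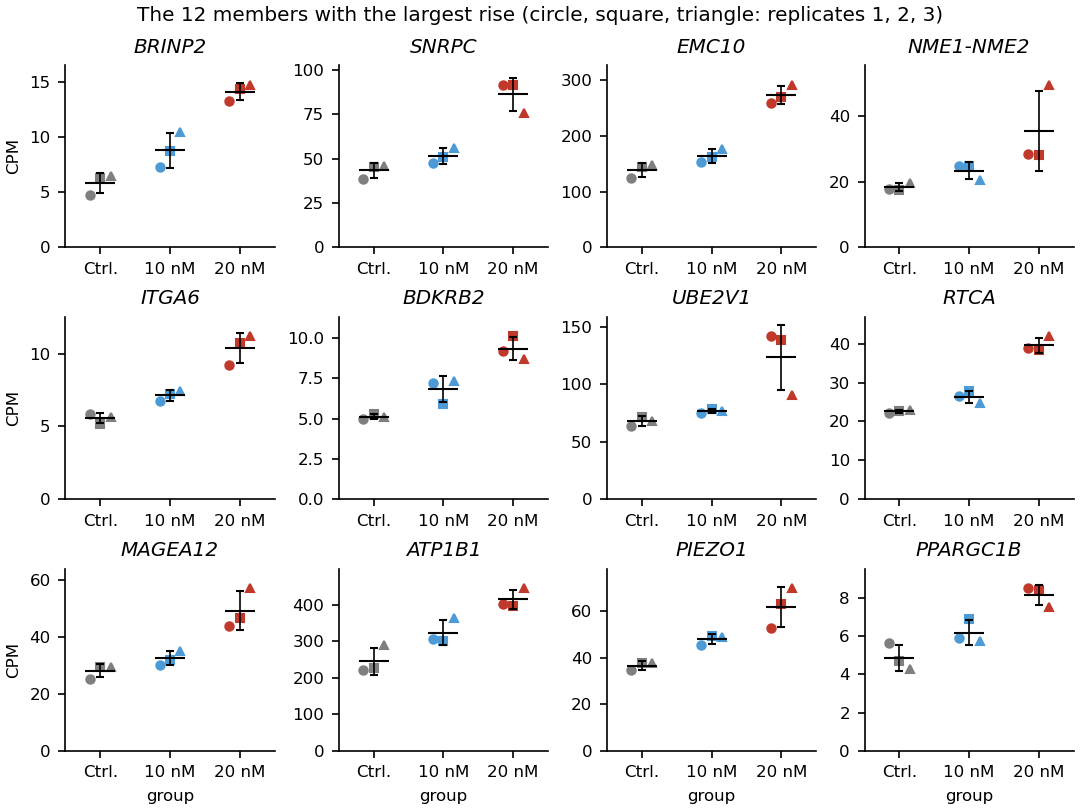
CPM of the 12 members with the largest rise in each library, by group, with circles, squares and triangles for replicates 1, 2 and 3 and a bar with whiskers for the mean ± SD (n = 3). In 20 nM replicate 3, NME1-NME2 lies above and UBE2V1 and SNRPC lie below the other 20 nM libraries, while the 20 nM libraries of BRINP2, EMC10 and RTCA lie close together.

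Separation of a member is the smaller of 2 gaps, log2 of the lowest 10 nM library over the highest Ctrl. library and of the lowest 20 nM library over the highest 10 nM library. It was below 0.02 in 55 members and at least 0.1 in 16, with a median of 0.04, so that for many members 1 library just keeps the order. The widest was that of CABLES1 (0.22), an adaptor of cyclin-dependent and Abl kinases, at 34.5, 32.3 and 34.1 CPM in Ctrl., 41.6, 41.0 and 41.8 CPM at 10 nM and 48.6, 52.6 and 49.4 CPM at 20 nM. ITGA6 followed (0.21), then CNTN1 (0.19), the neural adhesion molecule contactin, at 54.5, 54.8 and 57.6 CPM in Ctrl., 65.7, 69.2 and 70.3 CPM at 10 nM and 85.7, 81.8 and 80.4 CPM at 20 nM. Both genes rose by about equal amounts in each step, 0.30 and 0.28 for CABLES1 and 0.30 and 0.27 for CNTN1. UFC1, which conjugates the ubiquitin-like protein UFM1, was at 55.6, 56.9 and 57.03 CPM in Ctrl., 66.3, 67.4 and 67.3 CPM at 10 nM and 76.4, 81.3 and 87.5 CPM at 20 nM with a separation of 0.18. TMEM248, a transmembrane protein, was at 96.4, 102 and 106 CPM in Ctrl., 119.7, 118 and 119 CPM at 10 nM and 174, 157 and 142 CPM at 20 nM. GPD1L, related to glycerol phosphate dehydrogenase, went from 20.3 ± 1.66 CPM in Ctrl. over 24.1 ± 0.689 CPM at 10 nM to 31.9 ± 2.71 CPM at 20 nM (SD, n = 3). Its separation was 0.13, close to those of GNB1 (0.13) and RGS14 (0.12), which both act in G protein signalling. RGS14 went from 14.7 ± 0.661 CPM in Ctrl. over 17.4 ± 0.289 CPM at 10 nM to 21.4 ± 2.18 CPM at 20 nM. The separation was part of the choice and is a description.

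The members with the most counts were RGS5, ENO1, APP, GNB1, CANX and ACLY. CPM is not corrected for transcript length, so this ranks counts and not molecules. RGS5, which shortens G protein signals, was at 3218, 3319 and 3580.3 CPM in Ctrl., 3653, 3887 and 3805 CPM at 10 nM and 5356, 5174 and 3965 CPM at 20 nM. At 20 nM its replicates 1 and 2 were far above the 10 nM libraries and replicate 3 was only just above them. GNB1, a β subunit of G proteins, was at 610.3, 634 and 629 CPM in Ctrl., 694, 710.4 and 728 CPM at 10 nM and 839, 824 and 961 CPM at 20 nM, a rise of 0.49 with every replicate of a group close except the higher 20 nM replicate 3. APP, the amyloid precursor protein, was at 684, 719 and 667 CPM in Ctrl., 753, 802 and 737 CPM at 10 nM and 809, 821 and 950.4 CPM at 20 nM, and rose by 0.32. For ENO1, an enolase of glycolysis, the values were 1097, 1109.9 and 1084 CPM in Ctrl., 1133, 1194 and 1185 CPM at 10 nM and 1199, 1284 and 1608 CPM at 20 nM. It rose by 0.31, with 20 nM replicate 3 far above and 20 nM replicate 1 just above the 10 nM libraries.

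The second step was larger than the first in 134 members and smaller in 46. Between Ctrl. and 10 nM the members rose by a median of 0.18 on the log2 scale, and between 10 nM and 20 nM by 0.25. The share of the log2 rise reached at 10 nM had a median of 39.9%, and was under 25% in 15 members and over 60% in 14. Over all genes that reached 5 CPM, rising or falling, the median of this share was 41.0%, close to that of the members. The sizes of the steps are thus not read as a trait of the members. RAB11FIP1, an effector of recycling endosomes, had the smallest share (5.11%) and was at 18.7, 18.3 and 18.6 CPM in Ctrl., 19.0, 19.2 and 18.9 CPM at 10 nM and 29.5, 31.1 and 31.0 CPM at 20 nM. It was nearly flat up to 10 nM and then rose in all 3 libraries. DHX33, an RNA helicase, was of the same form (9.71%), from 64.5 ± 0.532 CPM in Ctrl. over 66.2 ± 1.01 CPM at 10 nM to 84.2 ± 0.507 CPM at 20 nM. The largest share was that of DAND5 (72.3%), a secreted antagonist of Nodal and bone morphogenetic proteins, which went from 5.17 ± 0.574 CPM in Ctrl. over 6.21 ± 0.0720 CPM at 10 nM to 6.66 ± 0.162 CPM at 20 nM. PCDHAC2, a clustered protocadherin, had 68.4% of its rise by 10 nM and was at 50.5, 47.9 and 48.0 CPM in Ctrl., 67.0, 62.7 and 63.1 CPM at 10 nM and 77.8, 71.97 and 69.3 CPM at 20 nM. RAB11FIP1, DHX33 and DAND5 were chosen for the form of their rise after their values were seen, and PCDHAC2 stands on a gene list.

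**Figure D3:**
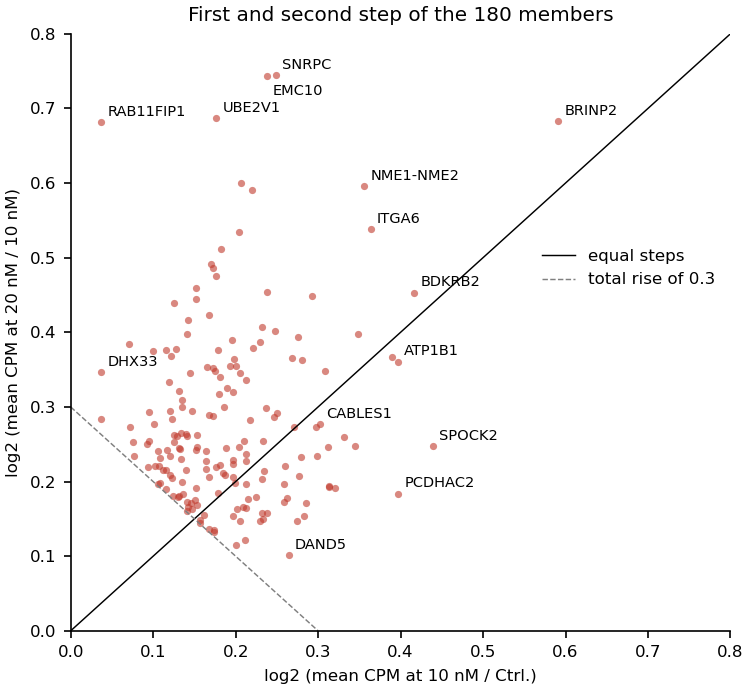
First step (log2 of mean CPM at 10 nM over Ctrl., x axis) against second step (log2 of mean CPM at 20 nM over 10 nM, y axis) for the 180 members, 1 point each, with the line of equal steps and, dashed, the total rise of 0.3 that the choice required. Of the points, 134 lie above the line, and RAB11FIP1, EMC10, SNRPC and UBE2V1 lie far above it.

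In the edgeR quasi-likelihood fit over all genes with Benjamini-Hochberg adjustment, 33 genes (0.221% of 14943) were called higher at 10 nM against Ctrl. and 13 of them were members, 7.22% of the members. When a block for the replicate number replaced the surrogate variables, edgeR called 0 genes and 0 members higher in that comparison, with 635 genes higher at an unadjusted p under 0.05. DESeq2 with the surrogate variables called 97 genes and 30 members. Leaving out 1 library gave 7 genes and 2 members without Ctrl. replicate 1, and 71 genes and 22 members without 20 nM replicate 3, as the extremes. At 20 nM against 10 nM, 285 genes (1.91%) were called higher, 69 of them members (38.3%). With the block this was 108 genes and 35 members, and without 20 nM replicate 1 it was 93 genes and 37 members. The choice of members used these same contrasts, so nothing is read from their counts.

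To place the members among their pathways, 30 gene lists were tested gene by gene in the dose trend, a fit in which the concentration enters as a number. In this trend 1471 genes (9.84%) were called higher and 1149 (7.69%) lower at an adjusted p of 0.05, with 177 members among the higher ones. Members were chosen by their rise over these same libraries, so nothing is read from the 177. Counts for each list are set against these shares, with no test of the list. The lists were chosen with earlier results of these data known, so their shares and the order of the lists are descriptions. The widest share was that of glycolysis and the pentose phosphate pathway, in which 17 of 31 genes (54.8%) were called higher and 1 lower. ENO1 is the only member on this list. Without 20 nM replicate 3, 13 of its genes were called higher and 1 lower, and with the block 15 and 0.

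Of 33 genes of cholesterol synthesis and uptake, 12 (36.4%) were called higher and 2 lower in the dose trend. Members were ACLY, which supplies acetyl-CoA, DHCR7, which makes cholesterol from its last precursor, and CYP51A1, which demethylates lanosterol. ACLY was at 357, 377 and 376 CPM in Ctrl., 397, 418 and 418 CPM at 10 nM and 510.0, 523 and 663 CPM at 20 nM. Every 20 nM library lay well above the 10 nM libraries, replicate 3 most of all. DHCR7 went from 68.2 ± 2.19 CPM in Ctrl. over 72.8 ± 1.35 CPM at 10 nM to 89.2 ± 14.1 CPM at 20 nM and CYP51A1 from 71.4 ± 2.57 CPM in Ctrl. over 76.9 ± 0.555 CPM at 10 nM to 90.3 ± 8.05 CPM at 20 nM (SD, n = 3). Of the 12 genes called higher, 9 were no members.

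Against 1.54% of all genes of at least 5 CPM, 9.26% of those on the extracellular matrix and basement membrane list were members, 5 of 54. They were SPOCK2, a brain proteoglycan, PLOD3 and P3H1, which hydroxylate collagen in the ER, COL18A1, a basement membrane collagen, and LTBP2, a protein of elastic microfibrils. SPOCK2 was at 26.0, 30.5 and 34.0 CPM in Ctrl., 39.2, 42.4 and 41.1 CPM at 10 nM and 46.8, 44.8 and 53.9 CPM at 20 nM, with 63.9% of its rise of 0.69 by 10 nM. PLOD3 was at 241, 255 and 250.5 CPM in Ctrl., 264, 275 and 282 CPM at 10 nM and 291, 299 and 427 CPM at 20 nM, a rise of 0.44 in which 20 nM replicate 3 was far above the other libraries. COL18A1 was at 44.4, 46.5 and 42.3 CPM in Ctrl., 49.7, 51.3 and 51.9 CPM at 10 nM and 57.1, 58.4 and 59.9 CPM at 20 nM. Its replicates were close and its steps of like size (0.20 and 0.20). P3H1 went from 42.4 ± 1.94 CPM in Ctrl. over 45.5 ± 1.27 CPM at 10 nM to 55.1 ± 0.405 CPM at 20 nM and LTBP2 from 34.9 ± 2.18 CPM in Ctrl. over 40.9 ± 2.19 CPM at 10 nM to 45.3 ± 1.99 CPM at 20 nM. In the dose trend 17 of 66 genes of the list (25.8%) were called higher and 1 lower, 12 of the 17 being no members. THSD4 on this list also met the criteria and was left out by name. Without 20 nM replicate 3, 21 genes of the list were called higher and 3 lower, and with the block 21 and 2.

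Receptors and adhesion molecules on the lists included ITGA6, ITGA9, LTK and PCDHAC2. ITGA9, an integrin α subunit, was at 177, 207 and 205 CPM in Ctrl., 217, 241 and 223 CPM at 10 nM and 244, 266 and 254 CPM at 20 nM, a rise of 0.38 in which Ctrl. replicate 1 was low. LTK, a receptor tyrosine kinase close to ALK, was at 21.0, 19.8 and 20.8 CPM in Ctrl., 26.5, 25.3 and 23.3 CPM at 10 nM and 27.2, 28.1 and 29.2 CPM at 20 nM, with 62.5% of its rise by 10 nM. In the dose trend, 10 of 30 integrins and receptor tyrosine phosphatases were called higher (33.3%) and 4 lower, 9 of 31 receptor tyrosine kinases higher (29.0%) and 1 lower, and 9 of 34 cadherins and protocadherins higher (26.5%) and 1 lower. PTPRU, a receptor tyrosine phosphatase, also met the criteria and was left out by name. PCDHAC2 shares its last exons with other protocadherins of the α cluster, of which PCDHAC1 went from 7.26 ± 0.668 CPM in Ctrl. over 9.31 ± 1.64 CPM at 10 nM to 12.9 ± 1.91 CPM at 20 nM and PCDHA10 from 6.39 ± 0.734 CPM in Ctrl. over 6.61 ± 0.972 CPM at 10 nM to 3.85 ± 0.882 CPM at 20 nM (SD, n = 3), so that its counts are uncertain.

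Lysosomal members were GALC, which degrades galactosylceramide, CTSL, a cathepsin, and ATP6V0E1, a subunit of the proton pump. GALC was at 19.7, 18.5 and 19.9 CPM in Ctrl., 24.99, 23.9 and 23.05 CPM at 10 nM and 30.1, 29.8 and 25.4 CPM at 20 nM. CTSL went from 33.1 ± 2.72 CPM in Ctrl. over 40.2 ± 2.62 CPM at 10 nM to 47.2 ± 4.81 CPM at 20 nM and ATP6V0E1 from 32.2 ± 0.917 CPM in Ctrl. over 37.0 ± 0.826 CPM at 10 nM to 40.1 ± 2.22 CPM at 20 nM (SD, n = 3), and all 3 genes had more than the median share of their rise by 10 nM (55.9%, 54.6% and 63.7%). Of 67 lysosomal genes, 17 (25.4%) were called higher and 3 lower in the dose trend. In the unfolded protein response list, whose genes for ER chaperones are induced by misfolded proteins, CANX was the single member and 11 of 37 genes (29.7%) were called higher and 1 lower, or 12 and 0 with the block. CANX, a lectin chaperone of the ER, was at 391.9, 408 and 435 CPM in Ctrl., 443, 455 and 459 CPM at 10 nM and 528, 525 and 489 CPM at 20 nM. Of the N-glycosylation list, MGAT1, which starts complex glycans, was the member, from 74.2 ± 2.93 CPM in Ctrl. over 81.8 ± 1.62 CPM at 10 nM to 95.0 ± 10.6 CPM at 20 nM, and 9 of 53 genes were called higher and 1 lower.

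Several neuronal and signalling lists held 1 or 2 members each. DDC, which makes dopamine from its precursor, stands on the noradrenergic identity list and was at 123.0, 129.7 and 149.5 CPM in Ctrl., 153, 167 and 175 CPM at 10 nM and 185, 190.0 and 207 CPM at 20 nM. It rose by 0.53, while of its list 4 of 32 genes were called higher and 11 (34.4%) lower in the dose trend, or 7 and 9 with the block. SLC18A3, the vesicular acetylcholine transporter, went from 24.5 ± 0.161 CPM in Ctrl. over 26.8 ± 1.35 CPM at 10 nM to 33.5 ± 3.52 CPM at 20 nM, and KCNH1, a voltage-gated potassium channel, went from 50.6 ± 1.66 CPM in Ctrl. over 57.6 ± 3.16 CPM at 10 nM to 68.3 ± 4.48 CPM at 20 nM. Of Wnt genes, DKK3, a secreted protein of the Dickkopf family, was at 67.8, 80.9 and 81.0 CPM in Ctrl., 91.1, 92.9 and 90.7 CPM at 10 nM and 97.9, 105 and 112 CPM at 20 nM, and TCF7, a transcription factor of the pathway, went from 41.6 ± 2.38 CPM in Ctrl. over 46.6 ± 1.80 CPM at 10 nM to 55.1 ± 1.72 CPM at 20 nM (SD, n = 3). On the Wnt list 9 of 46 genes were called higher (19.6%) and 1 lower. BMP8B, a bone morphogenetic protein, went from 14.3 ± 0.390 CPM in Ctrl. over 15.5 ± 0.365 CPM at 10 nM to 18.3 ± 0.497 CPM at 20 nM, and HSPB1, a small heat shock protein, from 270.1 ± 11.3 CPM in Ctrl. over 299 ± 15.1 CPM at 10 nM to 367 ± 61.6 CPM at 20 nM. The lists of these genes had 9 of 51 genes higher and 7 lower for synaptic vesicles, 5 of 42 higher and 1 lower for voltage-gated channels, 5 of 42 higher and 5 lower for TGF-beta and bone morphogenetic proteins, and 3 of 29 higher and 4 lower for immediate early and stress genes.

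Several lists held no member. None of 60 cell cycle and DNA replication genes met the criteria, and 14 of them (23.3%) were called lower in the dose trend by edgeR, or 6 with the replicate block. Nor was any of 83 cytosolic ribosomal protein genes a member, with 4 called higher and 1 lower. Since the criteria held for only 1.54% of all genes that reached 5 CPM, lists of these sizes can hold no member. Nothing is read from their lack of members. Among ZNF symbols, 1 of 425 genes that reached 5 CPM was a member (0.235%, against 1.54% of all genes at that level). This was ZNF469, which went from 18.2 ± 2.02 CPM in Ctrl. over 22.5 ± 1.63 CPM at 10 nM to 28.6 ± 2.11 CPM at 20 nM. Of 504 ZNF genes, 9 were called higher (1.79%) and 91 lower (18.1%), or 6 and 120 with the block. Solute carriers, which move ions and metabolites across membranes, had 7 members among 199 genes that reached 5 CPM (3.52%, against 1.54%). These were SLC39A14, a zinc and iron importer, SLC31A1, a copper importer, SLC43A2 and SLC7A6, amino acid carriers, SLC18A3, SLC25A46 and SLC10A3, and their log2 rises ran from 0.39 to 0.60. In the dose trend 42 of 265 solute carriers (15.8%) were called higher and 15 (5.66%) lower. The mitochondrial ribosome list had MRPS34 as its member, from 100.2 ± 6.19 CPM in Ctrl. over 111 ± 3.05 CPM at 10 nM to 132 ± 10.7 CPM at 20 nM. Of its 82 genes, 12 were called higher and 3 lower, or 19 and 3 with the replicate block. The other lists (glycosaminoglycan synthesis, amino acid response, axon guidance, vesicle coats, complex I, p53 targets, interferon response, Notch, microRNA machinery, mesenchymal identity) had no member. CHPF on the glycosaminoglycan list met the criteria and was left out by name.

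**Figure D4:**
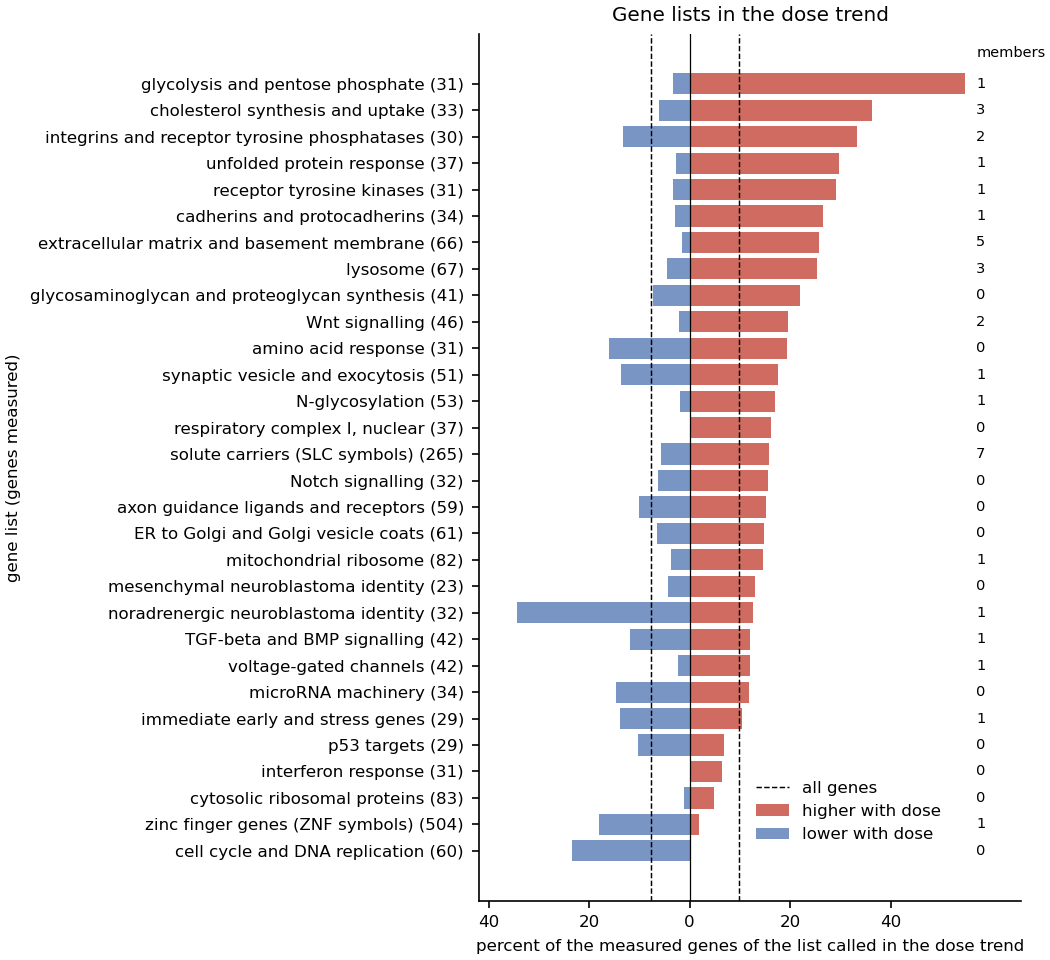
Percent of the measured genes of each list called higher (right) and lower (left) in the dose trend by edgeR at an adjusted p of 0.05, with the number of genes measured after each name, the number of members at the right and dashed lines at the shares of all genes (9.84% and 7.69%). Glycolysis reaches 54.8%, the cholesterol list 36.4% and the integrin and phosphatase list 33.3%, with the matrix list further down at 25.8%. The noradrenergic identity list has the widest lower share (34.4%), and the called cell cycle and ZNF genes are mostly on the lower side. The lists were chosen with earlier results of these data known.

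Most members stood on no list. The following were picked after their values were seen, to show what else the group holds, and they stand for no theme. PDIA5, a disulfide isomerase, was at 11.9, 10.1 and 12.5 CPM in Ctrl., 12.99, 13.8 and 15.4 CPM at 10 nM and 17.2, 16.5 and 23.9 CPM at 20 nM, with 20 nM replicate 3 far above the others. TXNDC5, a thioredoxin-like protein, rose from 109.6 ± 9.99 CPM in Ctrl. over 129 ± 7.18 CPM at 10 nM to 177 ± 11.2 CPM at 20 nM (SD, n = 3). PPIB, a prolyl isomerase that works on collagen, rose from 236 ± 9.31 CPM in Ctrl. over 259 ± 4.16 CPM at 10 nM to 304 ± 42.6 CPM at 20 nM, with a wide spread at 20 nM. PMM2, which supplies mannose phosphate for glycosylation, rose from 51.0 ± 1.14 CPM in Ctrl. over 57.7 ± 3.04 CPM at 10 nM to 80.2 ± 7.89 CPM at 20 nM. The G protein α subunit GNA13 rose from 99.2 ± 2.84 CPM in Ctrl. over 109 ± 2.53 CPM at 10 nM to 146 ± 19.3 CPM at 20 nM. ADCYAP1R1, the receptor of the neuropeptide PACAP, rose from 41.0 ± 3.09 CPM in Ctrl. over 49.6 ± 2.64 CPM at 10 nM to 57.3 ± 4.52 CPM at 20 nM. The prostaglandin receptor PTGER2 rose from 28.1 ± 0.935 CPM in Ctrl. over 31.5 ± 1.72 CPM at 10 nM to 36.9 ± 2.55 CPM at 20 nM.

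Further members were picked in the same way. PPIF, the cyclophilin of the permeability transition, rose from 79.4 ± 2.81 CPM in Ctrl. over 89.2 ± 4.84 CPM at 10 nM to 119.6 ± 5.86 CPM at 20 nM. TIMM50, an import subunit, rose from 72.4 ± 4.17 CPM in Ctrl. over 78.2 ± 0.228 CPM at 10 nM to 90.8 ± 16.8 CPM at 20 nM, with a wide spread at 20 nM. CLUH, which binds messenger RNAs of mitochondrial proteins, rose from 166 ± 1.73 CPM in Ctrl. over 179 ± 4.41 CPM at 10 nM to 211 ± 44.5 CPM at 20 nM. CLUH was at 183, 188 and 262 CPM at 20 nM, replicate 3 being the high one. STEAP3, which reduces iron in endosomes, rose from 19.1 ± 2.11 CPM in Ctrl. over 24.0 ± 0.783 CPM at 10 nM to 28.7 ± 3.02 CPM at 20 nM (SD, n = 3).

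Members were spread over the chromosomes. Chromosome 1 held the most, 22 of its 1177 genes that reached 5 CPM, and chromosome 5 the largest share, 14 of 528 (2.65%), against 1 of 291 (0.344%) on chromosome 22. Over all chromosomes the share was 1.54%. The median span of a member was 36.7 kb, against 34.3 kb for all genes that reached 5 CPM. RefSeq promoters of 300 bases (GRCh38.p14, 250 before and 50 after the start) were matched for 151 members, and 10 motifs were searched on both strands, with overlaps between motifs allowed. Shares are given for members, for the 9495 matched promoters of genes that reached 5 CPM and for all 27305 promoters, in this order. The E-box CACGTG was found in 16 members (10.6%, 10.4% and 7.43%), and the GC box GGGCGG in 106 members (70.2%, 72.1% and 44.6%). The motif of EGR factors, GCGTGGGCG, was in 5 members (3.31%, 1.39% and 0.784%), and the AP-1 motif TGANTCA in 9 (5.96%, 3.70% and 7.76%). The cyclic AMP response element TGACGTCA was in 6 (3.97%, 3.50% and 1.98%), the TATA box TATAAA in 8 (5.30%, 4.76% and 11.95%), and CCAAT in 57 (37.7%, 37.1% and 35.7%). CCACG, a part of the ER stress element, was in 83 (55.0%, 50.8% and 37.9%), the ETS core CCGGAAGT in 7 (4.64%, 9.67% and 4.44%), and the amino acid response motif TGATGNAA in 2 (1.32%, 1.48% and 3.67%). For most motifs the share in members was nearer to that in genes that reached 5 CPM than to that in all promoters. The exceptions were AP-1 and the ETS core. Promoters of falling genes held the ETS core in 4.94%, close to the share in members, and the AP-1 motif in 3.09%. The median GC content was 68.3% in the promoters of members, 66% in those of genes that reached 5 CPM and 65.3% in those of falling genes.

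The library of 20 nM replicate 3 was the highest of its group in 110 of 180 members (61.1%), against 39.2% of all genes that reached 5 CPM, and the lowest in 47 (26.1%), against 49.1%. Since all 3 libraries at 20 nM had to exceed the 10 nM libraries, a low value in any of them excluded a gene. On the log2 scale this library lay over 0.2 above the mean of replicates 1 and 2 in 55 members (30.6%, against 21.4% of genes that reached 5 CPM), led by NME1-NME2 (0.81), and over 0.2 below it in 17 (9.44%, against 33.8%), led by UBE2V1 (-0.63). On replicates 1 and 2 alone, 140 of the 180 members had a rise of at least 0.3, and the median over the members was 0.41. The criteria already required these libraries to exceed every 10 nM library, so this is a description and no check of the rise. CLUH, PLOD3, PPP1R14B and PNMA1 were among the genes for which replicate 3 was far above, and AIDA, RGS5 and GNA13 among those for which it was below. PPP1R14B, an inhibitor of a protein phosphatase, was at 311, 312 and 309 CPM in Ctrl., 345, 341 and 360.2 CPM at 10 nM and 361, 385 and 532 CPM at 20 nM. AIDA, an axin-binding protein, was at 61.9, 69.3 and 66.9 CPM in Ctrl., 74.1, 76.4 and 72.8 CPM at 10 nM and 117, 109.8 and 85.9 CPM at 20 nM. In both, the 20 nM libraries differed among themselves by more than the means of Ctrl. and 10 nM did. Whether the state of this library played a part in these values was not tested.

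**Figure D5:**
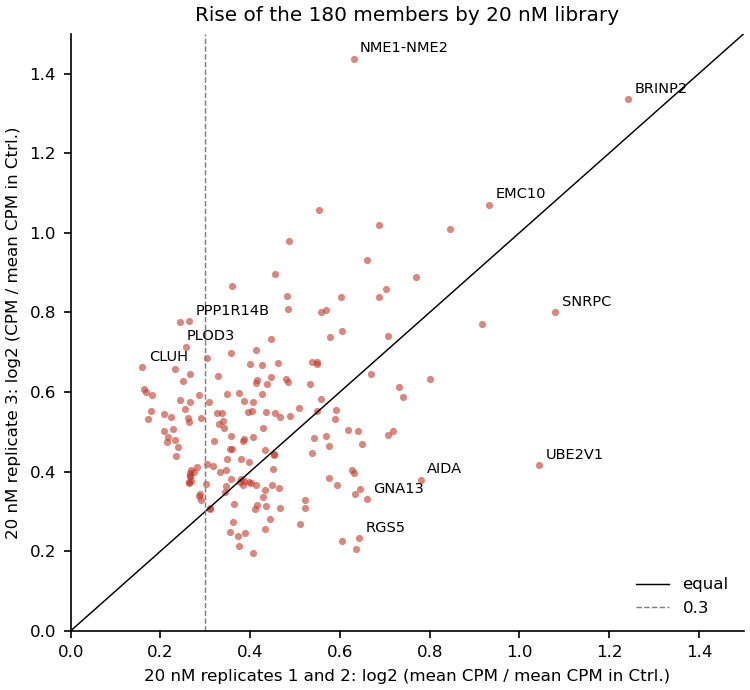
Rise of each member in 20 nM replicate 3 (y axis) against its rise in the mean of 20 nM replicates 1 and 2 (x axis), both as log2 of CPM over mean CPM in Ctrl., with the line of equality and, dashed, a rise of 0.3. Of the points, 140 lie at or right of the dashed line, and NME1-NME2 lies far above and UBE2V1 far below the line of equality.

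The same criteria were also applied without the 3 libraries of 1 replicate number, and the order was then read in the number left out, an alternative added after the data were seen. Without number 1 there were 417 genes, of which 315 (75.5%) were in the order Ctrl., 10 nM, 20 nM in number 1, against 26.1% of all genes that reached 5 CPM. Without number 2 it was 282 of 351 genes (80.3%, against 26.0%) and without number 3 it was 274 of 437 (62.7%, against 26.1%). The median log2 of 20 nM over Ctrl. in the number left out was 0.28, 0.33 and 0.30, against 0.00, 0.00 and -0.05 in all genes that reached 5 CPM. The share was thus lowest in the number that holds 20 nM replicate 3. Members made up 41.0%, 50.7% and 31.6% of the genes chosen without numbers 1, 2 and 3, so the shares in order describe other sets of genes. The libraries of a number left out took no part in the choice of its set, but same-numbered libraries vary together. The members themselves were chosen with all libraries, so their order was not tested here and nothing about it is read from these shares.

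Just inside the threshold of 0.3 stood AGTRAP (0.30086), CPNE2 (0.30176) and TLCD3A (0.30253), by their log2 rise, and AGTRAP, an angiotensin receptor-associated protein, was at 23.8, 23.4 and 23.5 CPM in Ctrl., 25.8, 27.0 and 25.3 CPM at 10 nM and 28.7, 28.01 and 30.5 CPM at 20 nM. Just outside it stood FHOD3 (0.29994), SLC19A1 (0.29745) and MYO1C (0.29581), which met the rest of the criteria.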

How the data were processed

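Polyadenylated RNA of SH-Sy5y cells was sequenced in 9 libraries, grouped and numbered by their titles. The authors quantified reads with Salmon on GRCh38.p13, summed them by gene symbol and removed low genes with edgeR (submitters' notes and methods of the study; versions are not given in the sources used here), and deposited estimated counts per gene. These were rounded for the fits and divided by the column sum for CPM. Also deposited, and not used, were the authors' tables of comparisons, which hold log2 fold changes and p-values, and a log2 table corrected for surrogate variables. The members and gene lists were chosen with earlier results of these data known. Members were named where they had 1 of the 12 largest rises, 1 of the 10 widest separations, 1 of the 6 highest mean CPM or a place on a list, with 3 genes on either side of the threshold. Other genes are said to be chosen after their values were seen.

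Fits used edgeR 4.0.16 in R 4.3.3 (TMM, quasi-likelihood, all 9 libraries) with surrogate variables from sva 3.50.0, 1 by group and 2 in the dose trend, and Benjamini-Hochberg adjustment over 14943 genes at 0.05. The dose trend fit was also run on simulated counts with known changes. These counts held no variation shared by a replicate number and no library that stood apart, so they tested neither. Alternatives were other scalings, filters, DESeq2 1.42.0, a replicate block and leaving out libraries. Deviations of same-numbered libraries from their group means correlated at 0.139 to 0.473 in all 9 pairs. Those of differently numbered libraries correlated at -0.354 to 0.128. The main fits did not include the replicate number, which entered a fit only as the block of an alternative. Of the table's genes, 14105 matched GENCODE 44 by identifier and 768 by symbol. Some genes and seed matches are not reported here. Whether counting used strand is not given in the sources used here, so overlapping and antisense genes can exchange reads. Library totals, in units of 1e6 counts, ran from 17.4 to 28.2. Python 3.11.15 with pandas 2.3.3 was used.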

Additional observations from a re-analysis of the deposited data

How the results depend on the processing

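The number of genes rising stepwise was 180. It stayed within 1.5 times under TMM scaling (231 genes, all 180 members among them), DESeq2 size factors (225, with 178 members), a mean of at least 1 CPM (194) or 20 CPM (158), and no minimum of the log2 ratio (232). It was 65 with a log2 ratio of at least 0.5 and 465 with a replicate block, that is with the order asked only within each replicate number, and the 180 members are among these 465 by construction. Leaving out 1 library gave 184 to 294 genes, and leaving out all 3 libraries of a number 351 to 437. Without 20 nM replicate 1 there were 294 genes, with 176 of the members, and without 20 nM replicate 3 there were 214, with 140. With fewer libraries the criteria hold fewer comparisons.

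Genes called higher at 10 nM against Ctrl. numbered 33, then 1 without surrogate variables, 0 with the replicate block and 97 with DESeq2. With 1 library left out they numbered 7 to 71: 7 without Ctrl. replicate 1, 18, 8 and 13 without 10 nM replicates 1, 2 and 3, and 71 without 20 nM replicate 3. The members among them numbered 13, then 0, 0 and 30, and 2 to 22. At 20 nM against 10 nM there were 285, then 61 without surrogate variables and 108 with the block, and 93 to 315 with a library left out (93 and 128 without 20 nM replicates 1 and 2, 187 and 175 without 10 nM replicates 2 and 3). The members among them numbered 69, then 23 and 35, and 37 to 66. In the dose trend, 1471 higher and 1149 lower genes became 731 and 505 without surrogate variables. With a library left out they ran from 929 and 739 without 20 nM replicate 2 to 1980 and 1990 without 20 nM replicate 1. Library totals alone and a minimum of 1 CPM kept these gene counts within 1.5 times. The block moved no other count of all genes or members by over 1.5 times. The cause of these changes was not tested.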
